A study of Mus musculus with 12 samples.

Results

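Hoxb13 is a homeobox gene whose transcript separated 12 libraries of mouse colonic mucosa into a high and a low side. The 12 libraries are the whole series, and no library was left out. The sides were chosen by the Hoxb13 level: each deposited count of Hoxb13 was divided by its library's median-of-ratios size factor, and the 6 libraries with the highest scaled count were set against the 6 with the lowest. The sides therefore came from a measured value and not from a label, and a p-value given for another gene describes how that gene went with Hoxb13 over these libraries. Hoxb13 itself chose the sides and was left out of every test. The mice were wild type (6 libraries) or Sgo1-/+ (6 libraries), the second with a single altered copy of the gene for shugoshin 1, which protects the cohesion of sister chromatids. Animals of both genotypes had been given the colon carcinogen azoxymethane (4 mg/kg, 2 times a week, between ages of 8 and 12 weeks), and mucosa was taken at 9 months. No untreated mice were part of the comparison. The labels name colonic mucosa and the genotype, and give neither the position along the colon nor whether the libraries come from separate mice, so p-values reflect only how far these samples spread, which may be technical.

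HOX genes lie in 4 clusters, named HOXA to HOXD, and encode transcription factors that set position along the body axis. Genes with high paralog numbers, at the posterior end of each cluster, are used in the hindgut, and genes with low and middle numbers are used further forward. In the adult colon HOXB13 marks the distal part, and the peptide hormone gene Insl5 is known from enteroendocrine cells of the distal colon and rectum. The distal colon takes up sodium through the epithelial sodium channel and potassium through the colonic proton and potassium pump, whose catalytic subunit is encoded by Atp12a.

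Hoxb13 lies on chromosome 11 at positions 96194316 to 96197447 of the plus strand (ENSMUSG00000049604, build GRCm38, the same as mm10). Its scaled count was 1384.0, 1056.5 and 1038.0 in Sgo1-/+ replicates 2, 4 and 5, and 477.5, 475.6 and 433.8 in wild type replicates 6, 5 and 4. These 6 formed the high side. On the low side it was 389.7, 243.1 and 169.8 in wild type replicates 1, 2 and 3, and 354.7, 256.9 and 190.5 in Sgo1-/+ replicates 1, 3 and 6. Each side thus held 3 wild type and 3 Sgo1-/+ libraries, and the 3 highest libraries, all Sgo1-/+, stood well apart from the other 9. At the boundary, wild type replicate 4 with 433.8 and wild type replicate 1 with 389.7 lay close together. Scaled by total counts instead of size factors, wild type replicates 4 and 5 changed sides with wild type replicate 1 and Sgo1-/+ replicate 1. The wild type high side and the Sgo1-/+ high side therefore did not hold the same level of Hoxb13, and a second comparison below used the level itself.

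**Figure D1:**
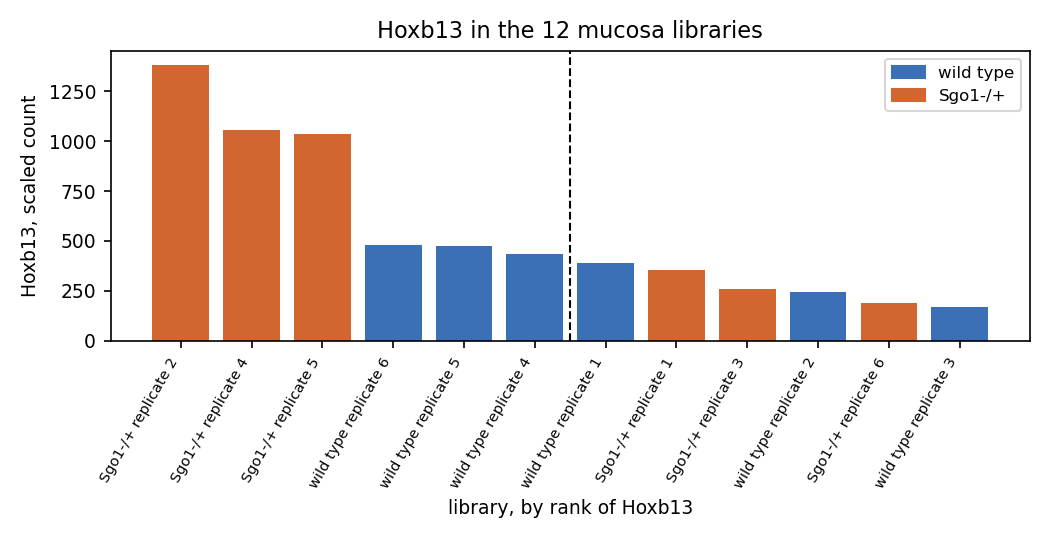
Scaled count of Hoxb13 (vertical axis) in each library, in order of rank (horizontal axis), with wild type and Sgo1-/+ in separate colours and a dashed line at the boundary between the sides. The 3 highest bars, from 1038.0 to 1384.0, are Sgo1-/+ libraries, and the bars on both sides of the line are 433.8 and 389.7.

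Libraries held 5711553 to 10198304 counts. Depth on the high side exceeded that on the low side by 622396 counts on average, with no difference detected by an exact two-sided permutation test over all 924 splits (p = 0.461). Rows that resemble mitochondrial transcripts took 20.8% of counts on the high side and 22.4% on the low side (exact permutation p = 0.833). Shares were highest, 36.4% to 37.9%, in Sgo1-/+ replicate 3 and in wild type replicates 3 and 5. In 4 libraries (Sgo1-/+ replicates 5 and 6, wild type replicates 1 and 6) the column name ends in an S with a number, and each genotype had 1 such library on each side. The sources used here do not say what this suffix stands for. Colon identity was checked in the marker lists: 22 of 22 absorptive colonocyte markers and 20 of 20 goblet cell markers passed the filter on low counts. Of 18 proximal colon and small bowel markers with a row, 12 passed it too, among them the ileal bile acid transporter gene Slc10a2 with 27657 counts over the 12 libraries and the sucrase gene Sis with 2295. Fabp1, Apoa1, Apoa4, Lct, Fgf15 and Defa24 did not.

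Between the sides, 3 genes were called, and all were higher where Hoxb13 was high: Ctse, Cela1 and Rdx. They are 0.0216% of the 13901 genes tested, at an adjusted p below 0.05 in edgeR with genotype as covariate. No gene was called lower. At an unadjusted p below 0.05 there were 904 genes (6.5%), 455 of them higher (3.27%) and 449 lower (3.23%). DESeq2 called more, 88 genes higher (0.639%) and 14 lower (0.102%) of 13776. Calls given below are those of edgeR unless DESeq2 is named.

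Ctse encodes cathepsin E, an aspartic protease of endosomes, and lies on chromosome 1 at 131638306 to 131675503. Its level in CPM, counts relative to the library's effective total, ran from 20.9 through a median of 32.5 to 42.5 on the high side, and from 5.53 through 9.41 to 19.6 on the low side. The sides did not overlap, which by itself places the 3 high libraries of each genotype above its 3 low ones. The means were 31.9 ± 9.29 and 11.5 ± 5.38 CPM (SD, n = 6 each). The sides differed by a log2 change of 1.50 ± 0.17 (SE; adjusted p = 0.0143). Wild type libraries alone gave a log2 change of 1.63 and Sgo1-/+ libraries alone 1.39.

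Cela1 encodes a chymotrypsin-like elastase, a secreted serine protease, on chromosome 15 at 100674425 to 100687920. It ran from 56.9 through 94.8 to 140 CPM on the high side and from 33.1 through 42.2 to 52.8 CPM on the low side. The 3 highest levels, 110, 124 and 140 CPM, were in the 3 Sgo1-/+ libraries with the most Hoxb13. The log2 change was 1.09 ± 0.15 (SE; adjusted p = 0.0372), with 0.80 in wild type alone and 1.38 in Sgo1-/+ alone. Rdx encodes radixin, which ties actin filaments to the cell membrane, on chromosome 9 at 52047150 to 52088737. It ran from 9.23 through 13.9 to 22.1 CPM on the high side and from 3.09 through 4.81 to 5.84 CPM on the low side. Its log2 change was 1.68 ± 0.23 (SE; adjusted p = 0.0382), with 1.29 in wild type alone and 2.06 in Sgo1-/+ alone.

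These calls depended on which libraries were used. Without Sgo1-/+ replicate 2 or Sgo1-/+ replicate 4 no gene was called, and the adjusted p of Ctse was then 0.0554 and 0.0649. Without any other single library Ctse kept its call. Only Ctse was called without wild type replicate 3 or 5 or without Sgo1-/+ replicate 1, 3, 5 or 6. Without wild type replicate 1 or 6, 2 genes were called, without wild type replicate 2 there were 5, and without wild type replicate 4, the library at the boundary, there were 16. Across these 12 settings the log2 change ran from 1.42 to 1.61 for Ctse, from 1.01 to 1.18 for Cela1 and from 1.55 to 1.82 for Rdx. With both libraries at the boundary left out, 22 genes were called, the 3 among them. Ranked by Hoxb13 relative to total counts, 0 were called and Ctse had a log2 change of 0.62 (adjusted p = 0.831). Among the 8 libraries without the column suffix the difference in mean log2 CPM was 1.49 for Ctse, 1.22 for Cela1 and 1.79 for Rdx, and among the 4 with it the values were 1.61, 0.84 and 1.30.

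The CPM of 52 genes did not overlap between the sides, 0.374% of those tested, and 39 of the 52 were higher on the high side (0.281%). Beside the 3 called genes these included S100a14, of the S100 calcium-binding family, at 40.1 to 73.0 CPM on the high side and 26.8 to 37.6 CPM on the low side (log2 change 0.91 ± 0.14; adjusted p = 0.0851). Slc5a3, the sodium-driven carrier of myo-inositol, was at 51.2 to 76.5 against 31.6 to 50.6 CPM (0.69 ± 0.12; adjusted p = 0.166). Ggh, which cleaves the glutamate chain of folates, was at 127 to 282 against 54.0 to 122 CPM (1.28 ± 0.23; adjusted p = 0.166). Casp14, a caspase known from cornifying skin, was at 4.91 to 11.4 against 1.25 to 3.73 CPM (1.68 ± 0.31; adjusted p = 0.173). In the goblet cell list, the trefoil peptide gene Tff3 was at 497 to 679 against 341 to 466 CPM (0.56 ± 0.12; adjusted p = 0.217). Of the 20 markers in that list, 8 were higher and 12 lower on the high side. The galactosyltransferase gene B4galt1, of the mucin glycosylation list, was at 98.0 to 148 against 62.5 to 95.1 CPM (0.62 ± 0.13; adjusted p = 0.196). None of these 6 passed the threshold in edgeR. DESeq2 called all 6, with adjusted p-values between 2.24e-05 and 0.00397.

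In the other direction the smallest p belonged to Mapre3, which encodes a protein of microtubule plus ends. It was at 17.3 to 35.2 CPM on the high side and 31.9 to 51.2 CPM on the low side, so the sides overlapped (log2 change -0.72 ± 0.13; adjusted p = 0.166). The gamma-glutamyltransferase gene Ggt1 had a value of -0.86 ± 0.19 (adjusted p = 0.252), the glutathione transferase gene Gsta1 -0.81 ± 0.20 (adjusted p = 0.272) and the carboxypeptidase gene Cpn1 -1.80 ± 0.44 (adjusted p = 0.272). DESeq2 called Mapre3, Ggt1, Gsta1 and Cpn1, with adjusted p-values between 0.000439 and 0.0236.

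**Figure D2:**
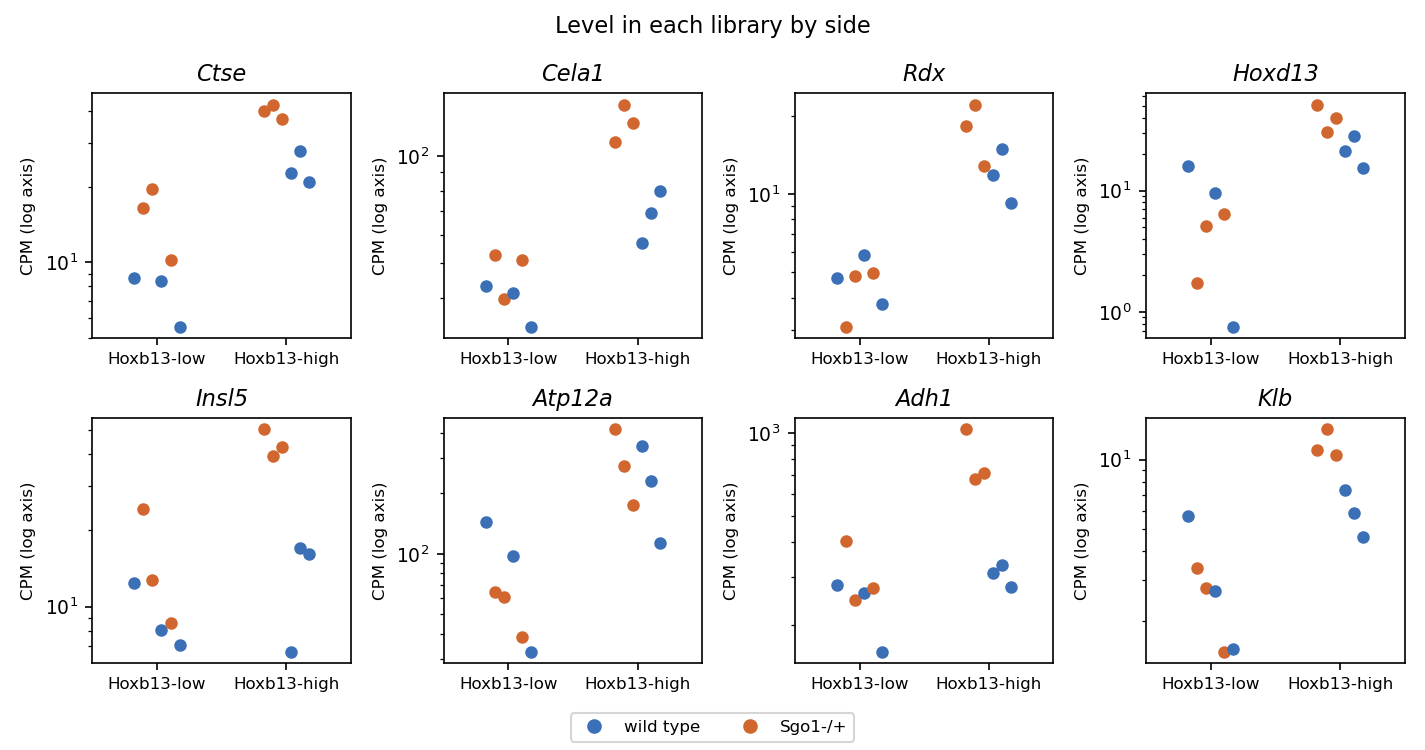
CPM on a log axis (vertical) in each library, by side (horizontal), for 8 genes, with wild type and Sgo1-/+ in separate colours and 1 point a library. The sides do not overlap for Ctse, Cela1 and Rdx, and they do for Hoxd13, Insl5, Atp12a, Adh1 and Klb, where the highest low-side point reaches the lowest high-side point.

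The posterior HOX genes stood higher on the high side in all 6 measured cases, and edgeR called none between the sides. Of the 11 posterior genes listed beside Hoxb13, Hoxc10, Hoxc11, Hoxc12, Hoxc13 and Hoxd12 did not pass the filter. That filter asks for enough counts in 6 libraries of either side, so a gene can pass through the side where it is high. The median log2 change of the 6 was 0.76, beside -0.02 over all genes, of which 46.9% were higher. Hoxd13, the last gene of the HOXD cluster, ran from 15.3 through 29.5 to 51.3 CPM on the high side and from 0.753 through 5.75 to 15.9 CPM on the low side. Only wild type replicate 1, the low library next to the boundary, reached the lowest high-side level. Its log2 change was 2.22 ± 0.55 (SE; adjusted p = 0.293), with 1.27 in wild type alone and 3.21 in Sgo1-/+ alone. DESeq2 called Hoxd13 between the sides (adjusted p = 0.00446) and not Hoxd10 (adjusted p = 0.155).

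Hoxd10 was at 1.44 to 4.44 CPM on the high side and 0.193 to 2.53 CPM on the low side, a log2 change of 1.73 ± 0.55 (adjusted p = 0.532) on few counts. Hoxd11 was at 2.45 to 9.33 against 0.772 to 4.52 CPM, a log2 change of 1.02 ± 0.45 (adjusted p = 0.733). The 3 HOXA genes had smaller values: 0.49 ± 0.31 for Hoxa13, 0.31 ± 0.35 for Hoxa11 and 0.20 ± 0.30 for Hoxa10, with adjusted p-values of 0.900 to 0.984. Among low-side libraries, Sgo1-/+ replicate 1 was at 39.7 CPM for Hoxa13 and 37.4 CPM for Hoxa10, close to or above the highest high-side levels of 40.8 and 30.8 CPM, while it held 1.74 CPM of Hoxd13. Posterior genes of the 2 clusters thus did not order these libraries in the same way. Hoxa11 overlaps an antisense gene, and since the sources used here do not say whether counting used strand, reads of the pair cannot be told apart.

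Of the 27 anterior and central HOX genes, 16 passed the filter, and 14 of these had a lower level on the high side, with a median log2 change of -0.30. None was called. At an unadjusted p below 0.05 there were 4, all lower: Hoxb5 at -0.52 ± 0.19, Hoxa2 at -0.74 ± 0.29, Hoxb7 at -0.51 ± 0.21 and Hoxa3 at -0.48 ± 0.22, with adjusted p-values of 0.624 to 0.767. Hoxb5 ran from 8.08 through 11.6 to 14.6 CPM on the high side and from 10.4 through 17.3 to 19.6 CPM on the low side. The 2 exceptions, Hoxa6 at 0.49 ± 0.42 and Hoxa9 at 0.16 ± 0.32, are both in the HOXA cluster. Hoxb9, the gene of the HOXB cluster measured nearest to Hoxb13, was at 43.8 to 60.8 CPM against 51.5 to 81.2 CPM, a log2 change of -0.22 ± 0.13 (adjusted p = 0.895). In wild type alone the median of the anterior and central genes was -0.14, and in Sgo1-/+ alone it was -0.48. With the libraries ranked by Hoxb13 relative to total counts the median was 0.63 for the posterior genes and -0.29 for the anterior and central ones, among which Hoxb3 and Hoxd3 changed sign. Without wild type replicate 5 the anterior and central median was -0.53.

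**Figure D3:**
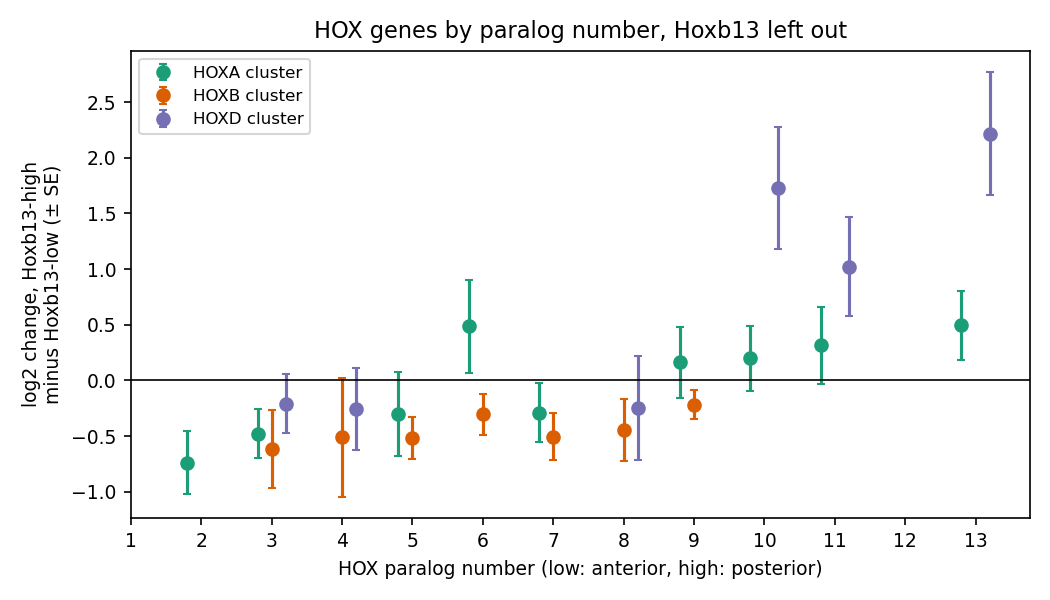
Log2 change of each measured HOX gene, high side minus low side (vertical axis, bars are the SE), by paralog number (horizontal axis), coloured by cluster. HOXD genes 10, 11 and 13 lie highest, from 1.02 to 2.22, HOXB genes lie between -0.62 and -0.22, and HOXA genes cross 0.

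Of 10 listed distal colon markers outside the HOX clusters, 6 were measured. Here too a gene can pass the filter through the side where it is high. Of the 6, 5 were higher on the high side, and edgeR called none between the sides. Their median log2 change was 0.90, and it was 0.58 with the libraries ranked by Hoxb13 relative to total counts. Insl5, the gene given as a marker with Hoxb13 and Hoxd13, had 50.2, 39.4 and 42.8 CPM in the Sgo1-/+ libraries of the high side (replicates 2, 4 and 5) and 6.64, 17.1 and 16.2 CPM in the wild type ones (replicates 6, 5 and 4). On the low side it ran from 7.03 through 10.5 to 24.3 CPM. The 3 Sgo1-/+ libraries with the most Hoxb13 stood above all others, while wild type replicate 6 on the high side had the lowest level of the 12. Its log2 change was 1.05 ± 0.32 (adjusted p = 0.480), with 0.52 in wild type alone and 1.53 in Sgo1-/+ alone.

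Atp12a ran from 113 through 252 to 416 CPM on the high side and from 32.6 through 62.6 to 144 CPM on the low side (log2 change 1.86 ± 0.40; adjusted p = 0.199). Only wild type replicate 1 at 144 CPM overlapped the high side. Ly6g, which encodes a surface protein of the Ly6 family best known from neutrophils, was at 16.9 to 80.2 against 6.53 to 21.6 CPM (1.88 ± 0.37; adjusted p = 0.181). The neutrophil genes S100a8 and S100a9 held 4 and 1 counts in all 12 libraries together and did not pass the filter. Which cells the Ly6g counts came from was not tested. Scnn1b, a subunit of the epithelial sodium channel, was at 5.06 to 8.64 against 3.00 to 6.90 CPM (0.74 ± 0.24; adjusted p = 0.555). DESeq2 called Atp12a (adjusted p = 0.000311) and Ly6g (adjusted p = 0.000309) between the sides. It did not call Insl5 (adjusted p = 0.107) or Scnn1b (adjusted p = 0.293). Capn13 had a value of 0.27 ± 0.30, and the somatostatin gene Sst was the exception at -0.28 ± 0.39.

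Of the salt and water transport genes, 20 of 26 measured members were higher on the high side, with a median log2 change of 0.22 and no call. The chloride channel gene Best2, known from goblet cells of the colon, was at 7.65 to 16.2 against 1.00 to 9.36 CPM (1.35 ± 0.32; adjusted p = 0.272). Hsd11b2, which keeps the mineralocorticoid receptor free for aldosterone, had a value of 0.49 ± 0.19 (adjusted p = 0.672). The sodium channel subunit gene Scnn1a was at 0.29 ± 0.17. Outside the list, Fxyd4, which encodes a regulator of the sodium pump, was at 4.33 to 18.0 against 0.502 to 5.66 CPM (2.11 ± 0.48; adjusted p = 0.252). DESeq2 called Best2 (adjusted p = 0.00446) and Fxyd4 (adjusted p = 0.00222) between the sides. By genotype, 22 members of the salt and water list were higher in wild type alone, with a median of 0.26, and 13 in Sgo1-/+ alone, with a median of 0.00. Other lists differed by genotype too, in both directions. Mucin glycosylation genes had 25 higher in wild type alone and 15 in Sgo1-/+ alone, and proliferation genes had 4 and 8. No gene was called for a difference between the genotypes in its change between the sides.

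Markers of the proximal colon and small bowel were lower on the high side for 8 of 12 measured members, beside 53.1% of all genes, with a median log2 change of -0.21 and no call. Leaving out Sgo1-/+ replicate 3 or 5 moved that median to -0.05 or -0.13, and leaving out wild type replicate 5 moved it to -0.10. With the mitochondrial-like share as covariate it was -0.04, and with the replicate block 0.01. The fatty acid-binding protein gene Fabp2 was at 136 to 482 CPM on the high side and 268 to 544 CPM on the low side (-0.75 ± 0.25; adjusted p = 0.563). Slc15a1, the proton-driven peptide carrier PEPT1, went against its list at 36.4 to 199 against 30.5 to 60.7 CPM (1.38 ± 0.34; adjusted p = 0.272). DESeq2 called Slc15a1 between the sides (adjusted p = 0.00811) and not Fabp2 (adjusted p = 0.167). Among 18 intestinal transcription factor genes the median was -0.03. Cdx2, a regulator of hindgut identity, had a value of -0.21 ± 0.18, and its sign differed by genotype, at 0.14 in wild type alone and -0.57 in Sgo1-/+ alone.

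In the cell type lists edgeR called no gene between the sides. The median log2 change was -0.05 for 20 goblet cell markers, -0.07 for 22 absorptive colonocyte markers, -0.15 for 19 enteroendocrine markers, 0.06 for 11 tuft cell markers and 0.18 for 15 crypt base and stem cell markers. Of 22 proliferation genes, 18 were lower, with a median of -0.22, which was 0.01 without wild type replicate 2. Of 37 mucin glycosylation genes, 23 were higher, and the median was 0.04. Among stromal and blood lists the median was -0.16 for smooth muscle, -0.33 for fibroblast and matrix genes (12 of 14 lower), 0.14 for myeloid cells and 0.80 for red blood cell markers. The summed level of the red blood cell markers ran from 38.4 to 176 CPM on the high side and from 24.9 to 96.0 CPM on the low side. The fibroblast and matrix median was 0.03 in wild type alone, -0.16 and -0.11 with Sgo1-/+ replicates 2 and 6 left out in turn, and -0.51 with wild type replicate 5 left out. The last setting gave a red blood cell median of 0.49. Fewer cells of a type and less RNA per cell cannot be told apart in such bulk samples.

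Squamous epithelium markers are known from stratified epithelium such as skin. Of 22 listed, 4 were measured, and 4 of 4 were lower on the high side, beside 53.1% of all genes. Their median log2 change was -1.38, with no call. As for the HOX genes, a gene can pass the filter through the side where it is high, here the low side. Ranked by Hoxb13 relative to total counts the median was -0.37, and with the replicate block -0.27. Their summed level ran from 14.8 to 40.5 CPM on the high side and from 12.4 to 120 CPM on the low side. Sbsn, the gene for suprabasin, was at 62.0 CPM in wild type replicate 1 and 62.8 CPM in Sgo1-/+ replicate 3, both low-side libraries, and at 0.396 to 5.84 CPM in the other 10. Of the keratin genes of stratified epithelium, Krt5, Krt14, Krt13 and Krt4 did not pass the filter, with at most 8 counts in a library, and Krt6a had no count in any library. What these markers contribute to the other results was not tested. The interferon response list had a median of -0.40, with 22 of 25 genes lower. Its summed level reached 2070 CPM on the low side against at most 853 CPM on the high side, and without wild type replicate 1 its median was 0.29.

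**Figure D4:**
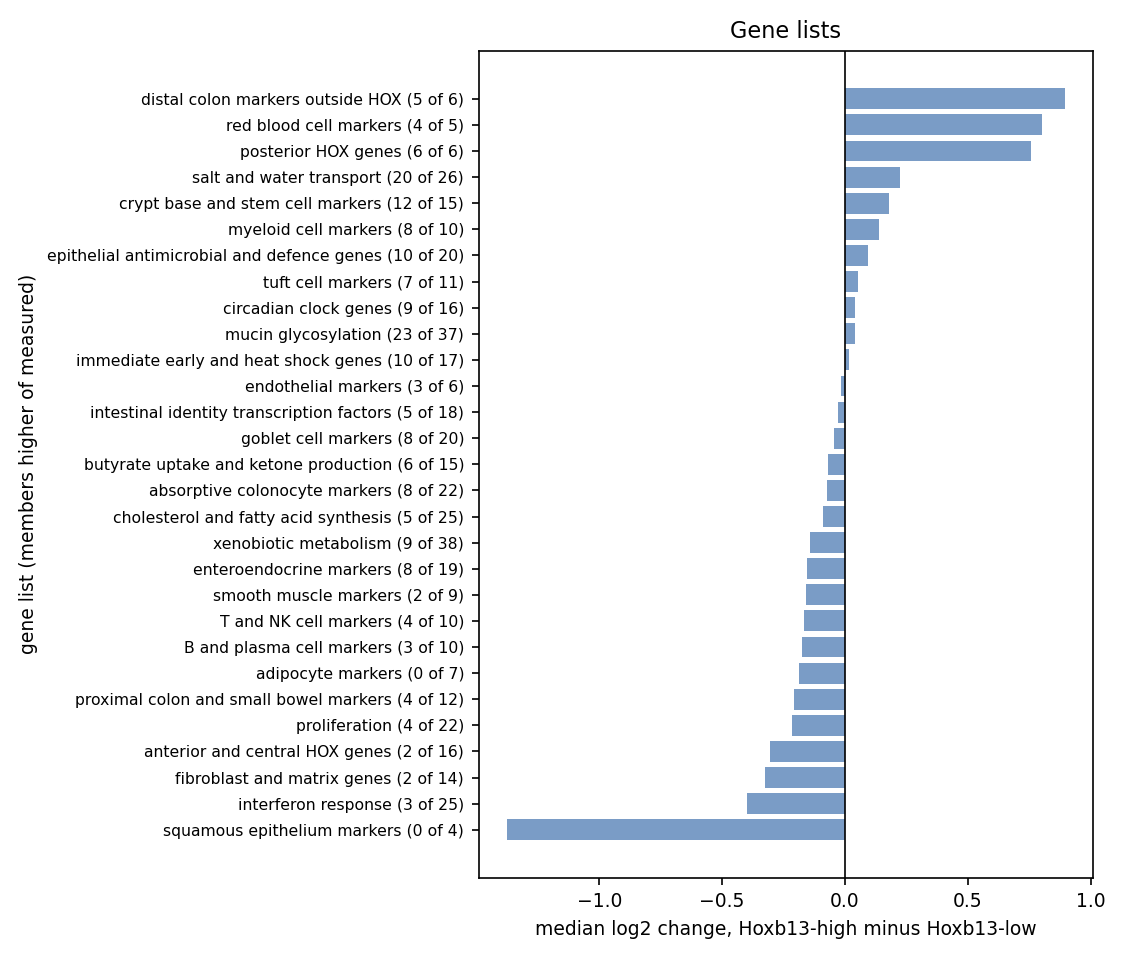
Median log2 change, high side minus low side (horizontal axis), of the measured members of each gene list (vertical axis), with the number of members higher of those measured beside its name; mitochondrial-like rows and a list with under 4 measured members are not drawn. Distal colon markers outside HOX, at 0.90, and posterior HOX genes, at 0.76, lie near the top, and anterior and central HOX genes, at -0.30, lie below 0. None of the lists had a member called between the sides by edgeR.

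The second comparison fitted every gene against log2 of the scaled Hoxb13 count, with genotype as covariate. It called 33 genes, 0.237% of the 13901 tested, 29 higher (0.209%) and 4 lower (0.0288%) with rising Hoxb13. At an unadjusted p below 0.05 there were 885 (6.37%), 482 higher (3.47%) and 403 lower (2.9%). All 3 genes called between the sides were among them, and DESeq2 called 26 of the 33 between the sides. The 33 had the same sign in wild type libraries alone as over all 12. Those libraries were part of the fit that chose the genes, and in wild type alone none of the 33 was called. On this scale the 3 Sgo1-/+ libraries with the most Hoxb13 lie far from the other 9. Among the 33 were 3 predicted genes that are not named here. Values in this comparison are log2 changes per doubling of Hoxb13 ± SE.

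Among the given markers, Hoxd13 had a slope of 1.37 ± 0.25 (adjusted p = 0.0490) and Insl5 a slope of 0.77 ± 0.13 (adjusted p = 0.0319), so both passed the threshold, narrowly for Hoxd13. With 1 library left out, Hoxd13 stayed below it in 2 of 12 settings, without Sgo1-/+ replicate 1 or 6 (range of the adjusted p 0.0283 to 0.202), and Insl5 in 3 of 12, without wild type replicate 1 or 6 or Sgo1-/+ replicate 1 (0.00454 to 0.168). With RLE size factors the adjusted p of Hoxd13 was 0.0528, with the column suffix as covariate 0.0557, and with Hoxb13 relative to total counts 0.0548. Relative to total counts it was 0.0721 for Insl5. No other HOX gene was called. The median slope of the 6 posterior HOX genes was 0.43 and that of the 16 anterior and central ones -0.25, beside -0.01 over all genes. Atp12a was called at 1.22 ± 0.15 (adjusted p = 0.00452), and Ano1, a calcium-activated chloride channel gene, at 0.58 ± 0.10 (adjusted p = 0.0417). Of the 6 distal markers outside HOX, 2 were called, Atp12a and Insl5, beside 0.237% of all genes tested. Insl5 is itself one of the given markers.

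Klb, Tnni1, Adh1 and Thbs4 had the smallest adjusted p, 0.00383 each. Klb encodes beta-klotho, a co-receptor for endocrine fibroblast growth factors. Sgo1-/+ replicates 2, 4 and 5 held 11.1, 13.5 and 10.5 CPM, wild type replicates 6, 5 and 4 held 7.36, 5.86 and 4.62 CPM, and the low side held 1.47 to 5.66 CPM, a slope of 1.11 ± 0.12. Its order over the libraries was close to that of Hoxb13, with wild type replicate 1 again the highest low-side library. Tnni1, a troponin I gene of slow muscle, ran from 29.4 through 40.4 to 56.6 CPM on the high side and from 16.6 through 19.7 to 28.3 CPM on the low side, with no overlap (0.62 ± 0.07). Thbs4, a thrombospondin gene of the extracellular matrix, had a slope of 0.67 ± 0.08, at 131 to 174 CPM in the 3 highest libraries and 23.1 to 91.9 CPM in the other 9.

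Adh1, the alcohol dehydrogenase gene of retinol and ethanol oxidation, reached 1030, 677 and 714 CPM in the 3 Sgo1-/+ libraries with the most Hoxb13, beside 160 to 406 CPM in the other 9 libraries (0.63 ± 0.07). High-side wild type libraries, at 276 to 331 CPM, lay within the range of the low side. Aldh1l1, which oxidises formyl tetrahydrofolate, had a like split, at 51.4 to 67.3 CPM in the 3 highest libraries and 9.54 to 29.1 CPM elsewhere (0.57 ± 0.08; adjusted p = 0.00980). Slc46a1, the proton-coupled folate carrier, had a slope of 1.07 ± 0.20 (adjusted p = 0.0490), and Ggh one of 0.76 ± 0.13 (adjusted p = 0.0344). Among enzymes of energy and amine metabolism, the muscle enolase gene Eno3 was at 0.93 ± 0.11, Gatm, which makes the precursor of creatine, at 1.04 ± 0.16, and Ddc, which makes dopamine and serotonin, at 0.37 ± 0.06.

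The glycosyltransferase genes Fut9, which adds fucose, and B3gnt7, which extends chains with N-acetylglucosamine, had slopes of 1.12 ± 0.18 and 0.88 ± 0.15 (adjusted p = 0.0310 and 0.0319). B3gnt7 was at 241 to 268 CPM in the 3 highest libraries and 15.6 to 134 CPM in the other 9. Sycn, the syncollin gene of secretory granules, had a slope of 0.81 ± 0.10, the phosphodiesterase gene Pde7a 0.59 ± 0.11, and Hif1a, the hypoxia-inducible transcription factor gene, 0.53 ± 0.09. The remaining named genes that rose with Hoxb13 were Sval1, Zfp775, Clic6, Cyp2d10 and Itih5, with slopes of 0.39 to 1.01. Those that fell were Pdk4, which encodes a kinase that shuts off pyruvate dehydrogenase, at -0.59 ± 0.09, the lysophospholipid acyltransferase gene Lpcat4 at -0.47 ± 0.07, and the T-box gene Tbx3 at -0.38 ± 0.07. Pdk4 was at 13.4 to 20.8 CPM in the 3 highest libraries and 34.9 to 63.4 CPM in the other 9.

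**Figure D5:**
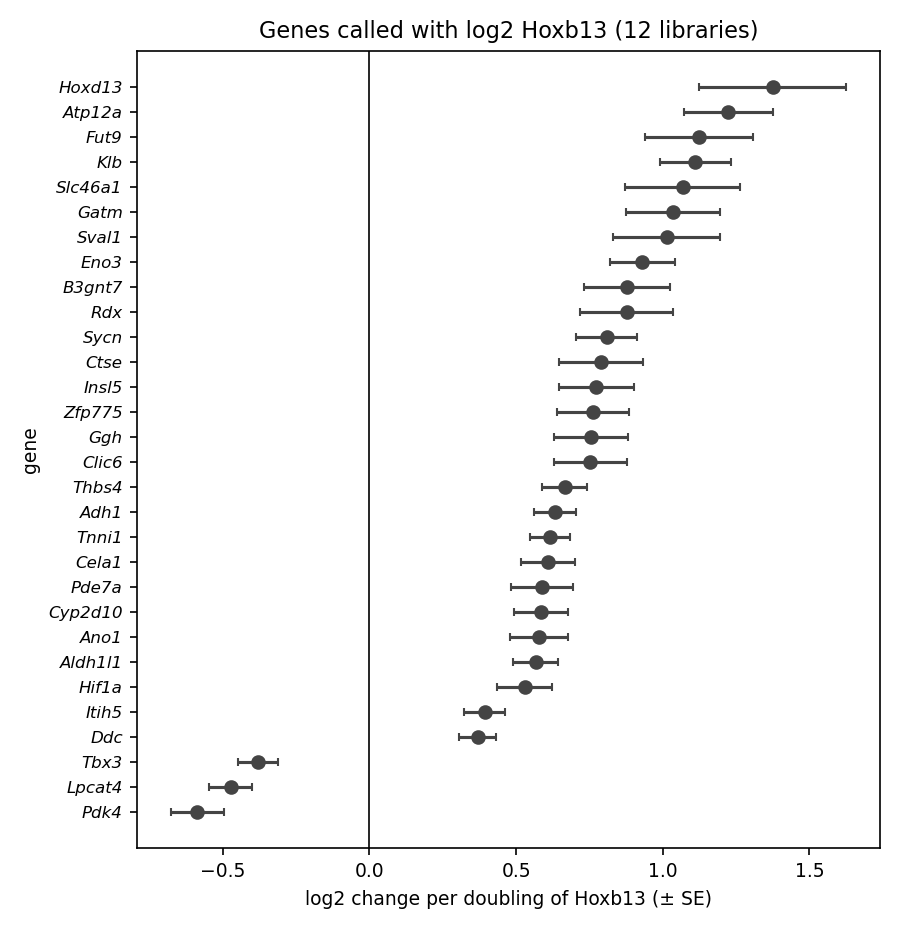
Log2 change per doubling of Hoxb13 (horizontal axis, bars are the SE) for the 30 named genes called in the fit on log2 Hoxb13 over 12 libraries (vertical axis). Hoxd13 at 1.37 and Atp12a at 1.22 lie at the top, and Tbx3, Lpcat4 and Pdk4 are the 3 below 0.

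Single libraries moved this count too. Leaving out Sgo1-/+ replicate 2 or 4 gave 9, and leaving out Sgo1-/+ replicate 5 or wild type replicate 2 gave 11. It was 12 without wild type replicate 4 and 14 without wild type replicate 3, and 13 once Sgo1-/+ replicate 3 was left out. It was 17 and 18 without Sgo1-/+ replicates 1 and 6, and 20 without wild type replicate 5. Without wild type replicate 1 or 6 it was 31 or 32. All 33 genes kept their sign in each of these settings, but they were chosen on the same libraries, so this is no separate support. Of the 33, 8 were called in all 12 settings: Klb, Tnni1, Adh1, Thbs4, Eno3, Atp12a, Sycn and a predicted gene. Slc46a1 was called in none of the 12, and Itih5, Pde7a, Rdx and Tbx3 in 1 each. With Hoxb13 taken relative to total counts 32 genes were called, but only 14 of the 33 were among them. Without the 3 libraries with the highest share of mitochondrial-like counts, 70 genes were called, 21 of the 33 among them, and with that share as a covariate 138 were called, all 33 among them. The 8 libraries without the column suffix gave no call on their own, and with the suffix as a covariate 19 of the 33 were called.

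Whether the difference between the sides was itself different between the genotypes was tested as an interaction over all genes. No gene was called by edgeR. An unadjusted p below 0.05 was found for 293 (2.11%), a smaller share than that threshold gives where no interaction exists. The log2 change between the sides was -0.15 in wild type and -1.47 in Sgo1-/+ for Pdk4, 0.05 and 2.40 for Fut9, 0.37 and 1.38 for Adh1, and 0.33 and 1.25 for Aldh1l1. All 4 were among the 293, and the adjusted p of the interaction in edgeR was 1 for each. Ly6g had the same value, 1.88, in both genotypes. In wild type, where the high and low sides were close in Hoxb13, the values are read beside a smaller difference in Hoxb13 than in Sgo1-/+.

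Promoters bear on members that move together, and RefSeq sequences (GRCm38.p6) were searched for the letters TCGTAAA and CAATAAA, the pair of forms that HOX proteins of paralog group 13 are known to bind. CAATAAA also holds the polyadenylation signal AATAAA. The search covered the 250 bases before each RefSeq start, on both strands. Of the 33 genes called with log2 Hoxb13, 23 matched the table, with 27 windows. TCGTAAA was in 1 of the 27 windows (3.7%), beside 0.478% of all 32851 windows, and CAATAAA was in 2 (7.41%), beside 4.2%. Over the windows of tested genes alone the shares were 0.576% and 2.38%. The windows that hold a match are given in part because they belong to called genes, with the matched letters in capitals, 5′ to 3′ on the plus strand, which is the strand of all 3 genes. In Eno3 the match reads on the opposite strand. The RefSeq start of Adh1 lies inside the longer gene of the GENCODE annotation, which spans 138260991 to 138290698 of chromosome 3.
Adh1, chr3:138277533-138277584: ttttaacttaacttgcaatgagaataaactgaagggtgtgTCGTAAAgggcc
Eno3, chr11:70656946-70657032: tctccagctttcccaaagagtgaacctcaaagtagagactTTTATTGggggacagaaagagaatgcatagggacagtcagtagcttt
Slc46a1, chr11:78465451-78465529: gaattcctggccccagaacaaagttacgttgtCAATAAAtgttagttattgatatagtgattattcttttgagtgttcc
A match describes the letters and does not show that a protein binds there, and with so few windows the shares are a description only. Adh1 was highest in the 3 Sgo1-/+ libraries with the most Hoxb13, and Eno3 and Slc46a1 were at 33.5 to 151 and 6.06 to 22.6 CPM on the high side, against 26.5 to 52.5 and 1.26 to 12.4 CPM on the low side.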

How the data were processed

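Messenger RNA of colonic mucosa was purified from total RNA and sequenced on an Illumina MiSeq with TruSeq libraries, per the labels' protocols. The submitters' processing notes name build mm10 and DESeq. The sources used here name no aligner, counter or strand setting. The authors deposited expected counts in the raw column of each file, and 69.6% of values above 0 are not whole. The log2 column deposited by the authors was recomputed from the raw column (100.0% of values within 0.001) and was not used for tests. Counts were rounded, and the 505 of 38592 rows without an Ensembl identifier, which took 1.79% to 5.4% of the counts, were dropped.

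Size factors for the ranking used the 15493 rows above 0 in all libraries. Tests ran in edgeR 4.0.16 with R 4.3.3 (glmQLFit, glmQLFTest, TMM, filterByExpr by side, minimum count 10, minimum total 15), with genotype and side, or genotype and log2 Hoxb13. Adjusted p-values are Benjamini-Hochberg values over 13901 genes, with a threshold of 0.05. CPM uses TMM factors, and log2 CPM a prior count of 2. The SE is the absolute log2 change divided by the square root of F. The edgeR fit was first run on simulated counts, where calls and signs were scored and the SE was not. Alternatives were DESeq2 1.42.0, voom in limma 3.58.1, other scaling, filters, covariates and subsets of libraries, with the alternatives of the log2 Hoxb13 fit and the one without mitochondrial-rich libraries chosen after seeing the data.

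Members, gene lists and the split were chosen with earlier results of these data known. The rule for named genes took Hoxb13, the measured posterior HOX genes, Insl5 and called genes. Predicted genes are counted without names, and genes named without a call between the sides were chosen after their values were seen. Gene positions are from GENCODE M21 and promoter sequences from RefSeq.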

Additional observations from a re-analysis of the deposited data

Results flagged for a closer look

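Among 186 sets of 6 values (91 named genes, and other values, on each side), 14 had an end library far from the rest. Chance flags about 1 in 20 such sets. On the high side, wild type replicate 4, the library next to the boundary, stood apart in 4 genes: Gsta1 at 42.1 CPM and Elf3 at 642 CPM were above the other 5 libraries, and Slc46a1 at 6.06 CPM and Scnn1a at 64.5 CPM were below them. Wild type replicate 5 stood apart in 2 HOX genes, with Hoxb4 at 77.3 CPM and Hoxd4 at 5.86 CPM against at most 24.8 and 2.31 CPM in the other high-side libraries.

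On the low side, Sgo1-/+ replicate 1 stood above the others in 4 genes: Hif1a at 64.5 CPM, Sval1 at 131 CPM, B3gnt5 at 35.3 CPM and Insl5 at 24.3 CPM. Wild type replicate 1, the other low-side library near the boundary, stood above them in Tnni1 at 28.3 CPM and Fut9 at 20.3 CPM. Hoxb7 was at 36.1 CPM in Sgo1-/+ replicate 6, and Flg was at 11.0 CPM in wild type replicate 3.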

How the results depend on the processing

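With the replicate number as a block, 0 genes were called between the sides and 0 with log2 Hoxb13. The numbers share no stated origin: the correlations of same-numbered samples' deviations were 0.0575, 0.13, 0.455, -0.0478, -0.297 and 0.0879, and 1 of 12 samples correlated best with its own number. Hoxa7, Hoxb4 and Hoxa5 turned to 0.67, 0.14 and 0.77 with the replicate block.

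Between the sides, where 3 genes were called higher and 0 lower, the counts higher and lower were 88 and 14 with DESeq2, 29 and 4 with log2 Hoxb13, 20 and 2 without the 2 libraries at the boundary, and 6 and 2 with the mitochondrial-like share as covariate. Higher calls were 0 without the genotype covariate, ranked by Hoxb13 relative to total counts, in wild type alone or in libraries without the column suffix alone. They were 1 with the suffix as covariate, in Sgo1-/+ alone or without the 3 libraries with most mitochondrial-like counts. Leaving out 1 library gave 0 to 15 higher and 0 to 1 lower. RLE factors, no filter and voom gave 3, 4 and 2 higher and 0 lower.

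With log2 Hoxb13, where 29 genes were higher and 4 lower, the counts were 124 and 39 with DESeq2, 109 and 29 with the mitochondrial-like share, 42 and 28 without the 3 libraries rich in it, and 0 and 0 in wild type alone or libraries without the suffix alone. They were 3 and 0 in Sgo1-/+ alone, 47 and 5 without genotype, 17 and 3 with the suffix and 32 and 0 with Hoxb13 relative to total counts, of which 14 were among the 33. Leaving out 1 library gave 9 to 29 higher and 0 to 5 lower.

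Depth, high minus low, was -444522 in wild type alone, and 225900 to 1123250 counts without 1 library. The difference in mitochondrial-like share was 2.12 percentage points in wild type alone and -4.63 to 1.58 without 1 library. Over 27 settings, 14 of 91 named genes changed sign in at least 1. Ranked relative to total counts, Adamts20 was 0.081, Trank1 0.092, Elf3 -0.052, Hoxb3 0.144, Capn13 -0.351, Hoxd3 0.084 and Sst 0.370. Sst was 0.20 in Sgo1-/+ alone. In wild type alone Cdx2 was 0.14, Hoxb4 0.21, Hoxd3 0.013 and Hoxd4 0.025, and in libraries without the suffix Hoxd8 was 0.16 and Hoxa9 -0.13. Without 1 library Hoxb4 ran from -0.995 to 0.052, Hoxd8 from -0.545 to 0.020 and Hoxa9 from -0.002 to 0.35. The cause of these changes was not tested. Low genes are limited by depth: Hoxd10 had at most 43 counts in a library.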
